A study of Arabidopsis thaliana with 4 samples.

Results

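The Di19 (drought-induced 19) family of Arabidopsis thaliana comprises 7 loci that encode small hydrophilic zinc finger proteins of the Cys2/His2 class. Members were taken as every probe set assigned to exactly 1 gene whose locus is among these 7, and 5 of the 7 loci had such a probe set, 1 each, of 22746 tested probe sets. The measured loci were DI19 (AT1G56280), AT4G02200, AT3G06760, AT5G26990 and AT1G02750. The tables used here name no probe set for AtDi19-3 (AT3G05700), the gene disrupted in the mutant, or for HRB1 (AT5G49230), so the targeted gene could not be read on the arrays and could not check the labels.

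Di19 proteins are mostly nuclear, and the transcripts of several are known to respond to dehydration and salt. DI19, the founding member, has been tied to drought and pathogen responses and is a substrate of calcium-dependent protein kinases, while HRB1, named for its hypersensitivity to red and blue light, acts in light signalling. AtDi19-3 is the member studied here as a partner of the auxin repressor IAA14.

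The arrays compare whole 10-day-old seedlings of the Atdi19-3 mutant, homozygous for a single T-DNA insertion allele late in the fifth exon, with seedlings of the wild type (WT), and the 2 genotypes share the Col-0 ecotype. Seeds of both genotypes were first stratified in the cold for 72 h. All seedlings were then raised without further treatment on 1/2 MS medium at 22 °C in 16 h light and 8 h dark. Each genotype has 2 arrays, which the labels call biological replicates without saying whether they came from separate cultures, and lines complemented with the gene were not on the arrays, so the mutant is represented by 1 allele. RNA of a whole seedling mixes all its organs, and fewer cells of a type cannot be told apart from less RNA per cell.

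The values are log2 signals that the authors background-corrected and normalized. The lowest value, 2.49, occurs on all 4 arrays, and 56.0% of the tested probe sets lay under 3 on every array. The arrays of the 2 genotypes also differed as a whole. The share of probe sets over 4 was 14.1% and 13.5% on the Atdi19-3 arrays and 7.1% and 8.34% on the WT arrays, and probe sets with a mean over 4 had a median log2 fold change of 0.77. The 18 hybridization spike-in probe sets had medians of 5.92 and 6.20 on the Atdi19-3 arrays and 9.69 and 9.41 on the WT arrays, and the 3' minus 5' difference was smaller on the Atdi19-3 arrays for 5 of 6 control transcript pairs. The part of these differences in the values below was not tested.

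DI19 stood apart from the other measured members in its values. Its signal was 6.84 and 7.29 on the Atdi19-3 arrays, against 4.4318 and 4.4316 on the WT arrays. Both mutant arrays thus lay above both WT arrays, by at least 2.41 on the log2 scale. All 4 values were above 2.49, the lowest value of any probe set, by 4.34 and 4.79 in Atdi19-3 and by 1.94 on each WT array. That distance does not give the background of this probe set. Whether the WT values lay at that background, which would make the fold a lower bound, was not tested. The means were 7.06 ± 0.32 in Atdi19-3 and 4.43 ± 0.0001 in WT (SD, n = 2 arrays each).

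The log2 fold change of DI19 was 2.63 (standard error 0.20), a 6.2-fold difference with a 95% confidence interval of 3.74 to 10.3. Its adjusted p of 0.0559 (limma, Benjamini-Hochberg over all tested probe sets) missed the limit of 0.05 while its unadjusted p was 0.00242. DI19 ranked at place 192 among all tested probe sets by log2 fold change, and 0.844% of them had a value at least as large. That share counts the 56.0% under 3 on every array, which are too close to the floor to differ by so much. It is therefore not the share among probe sets as bright as DI19, for which those with a mean over 4 had an upper quartile of 1.59. The WT arrays differed by 0.0002 here, a closeness within 0.001 that 25.0% of all probe sets and 2.22% of those with a WT mean over 4 showed, whereas the Atdi19-3 arrays differed by 0.45. The spread between replicates of DI19 thus lay almost wholly in the mutant arrays. DI19 passed the limit with an intensity trend in limma (adjusted p = 0.0499), where 2.91% of all probe sets were called, and without the probe sets that never varied (adjusted p = 0.026), where 7.5% were. It also passed on probe sets over 4 on at least 2 arrays only (limma adjusted p = 0.00152). Centring each array on its median over the 1334 probe sets above 4 on all 4 arrays gave 2.03 (limma adjusted p = 0.00194). But 64.1% and 81.2% of the probe sets tested were called in these settings, so most passed. Quantile normalization brought its log2 fold change to 1.75 (adjusted p = 0.115).

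**Figure D1:**
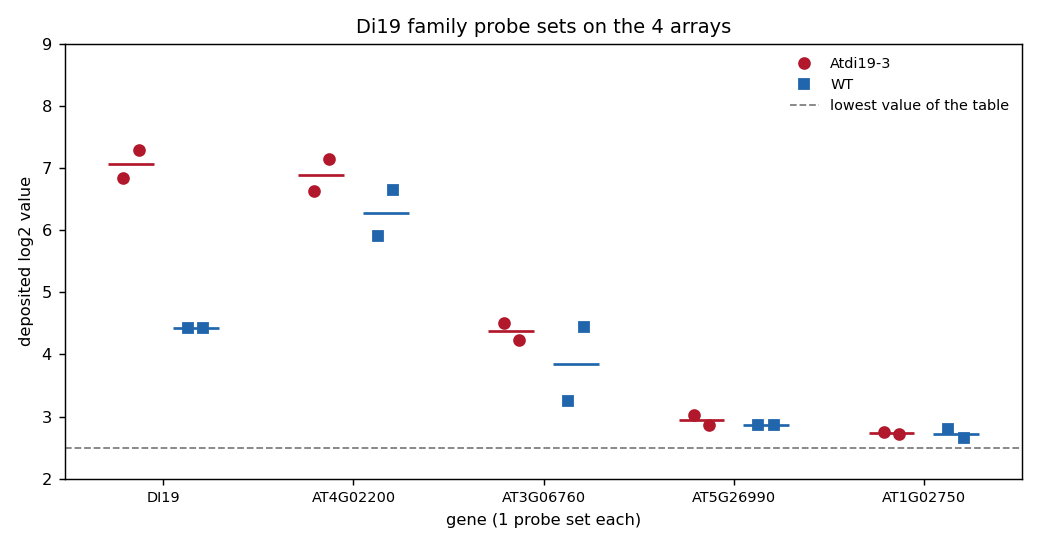
Deposited log2 value (vertical axis) of the 5 measured Di19 family probe sets, with circles for the 2 Atdi19-3 arrays, squares for the 2 WT arrays, short lines for the genotype means and a dashed line at the lowest value of the table, 2.49. The genotypes are separate only for DI19, while AT5G26990 and AT1G02750 lie close to the dashed line on every array.

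AT4G02200 was measured well above the floor in both genotypes, and its values overlapped. It read 6.64 and 7.15 on the Atdi19-3 arrays, against 5.91 and 6.64 on the WT arrays. The lower mutant array (6.6356) lay just under the higher WT array (6.6437). Means were 6.89 ± 0.36 in Atdi19-3 and 6.28 ± 0.52 in WT (SD, n = 2). The genotypes differed by 0.61 on the log2 scale (standard error 0.40, limma adjusted p = 0.584), with an interval of -0.83 to 2.05 that runs from 0.564 to 4.15 times the WT level. After quantile normalization the value was -0.23.

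AT3G06760 had overlapping values as well, and 1 WT array set its difference. The Atdi19-3 arrays read 4.51 and 4.24, against 3.26 and 4.45 on the WT arrays. The mutant values lay close together, with a gap of 0.28, whereas the WT values were 1.19 apart. For probe sets with a mean over 4 the median gap was 0.18 between the Atdi19-3 arrays and 0.29 between the WT arrays. The log2 fold change was 0.52, with a standard error of 0.55, a limma adjusted p of 0.61 and an interval of -1.45 to 2.50. Without the first WT array it was -0.073, and without the second it was 1.12, so that no direction can be given for this gene. Quantile normalization gave -0.13.

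AT5G26990 and AT1G02750 were at or near the floor, where no genotype difference could be detected. AT5G26990 read 3.02 and 2.87 in Atdi19-3 and 2.87 on both WT arrays. The value 2.8716 was common to 3 of its 4 arrays, a pattern of 1 lowest value on exactly 3 arrays that 17.1% of the tested probe sets showed. AT1G02750 read 2.75 and 2.71 in Atdi19-3 and 2.79 and 2.66 in WT. Their log2 fold changes were 0.076 (interval -0.17 to 0.32, adjusted p = 0.584) and 0.0059 (interval -0.23 to 0.24, adjusted p = 1 from limma). The narrow intervals describe probe sets with little signal to vary and say little about the transcripts. Median centring, which moved all probe sets by -0.61, floor included, placed AT5G26990 at -0.53 and AT1G02750 at -0.60. The sign for AT1G02750 also turned without the second WT array (-0.064) and without the first Atdi19-3 array (-0.012).

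Over the family, limma called 0 of the 5 measured members at an adjusted p under 0.05, against 3.76% of all tested probe sets (3.16% higher and 0.602% lower in Atdi19-3). At an unadjusted p under 0.05 there was 1 member, DI19, against 18.5% of all. The study's own limits for array genes were applied to the limma p, not to the study's own p-values. These limits (a change of more than 1 log2 unit either way, with p at most 0.05 before adjustment) were passed by DI19 alone, against 6.7% of all tested probe sets. Of all tested probe sets 6.34% passed them as higher, and of those with a mean over 4 it was 37.0%. Both mutant arrays exceeded both WT arrays for 1 of 5 members, against 28.5% of all probe sets and 66.8% of those with a mean over 4. The estimates of all 5 were above 0, as were 48.7% over all probe sets, and their median was 0.52, beside 0 over all tested probe sets. Read against probe sets with a mean over 4, whose quartiles were 0.09 and 1.59, AT4G02200 and AT3G06760 lay inside that range and DI19 above it.

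**Figure D2:**
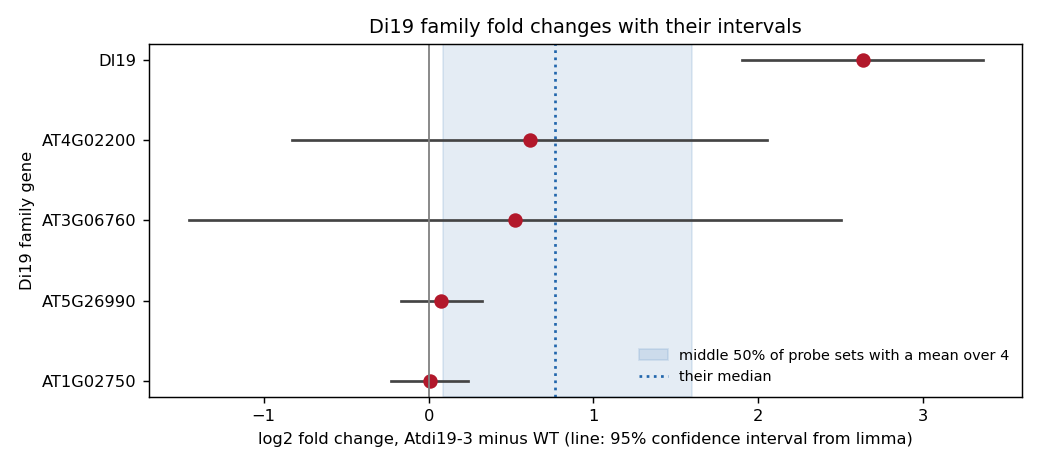
Log2 fold change of Atdi19-3 over WT (horizontal axis) for the 5 measured Di19 family genes, with points for the estimate and lines for the 95% confidence interval from limma, n = 2 arrays per genotype. Shading runs between the quartiles of the probe sets with a mean over 4 (0.09 to 1.59) and the dotted line their median of 0.77. Only the interval of DI19 (1.90 to 3.36) leaves out 0.

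The single-gene probe sets closest to each member over the 4 arrays were found by Euclidean distance on the log2 values, among 14420 others, as a description over 4 arrays of 2 genotypes. For DI19 these were AT4G16190 (distance 0.20), GLDP1 (AT4G33010, 0.31), a subunit of the glycine decarboxylase of photorespiration, and MLP423 (AT1G24020, 0.46), a member of the major latex protein-like family. AT4G16190 read 7.01 and 7.25 on the Atdi19-3 arrays, against 4.39 and 4.51 on the WT arrays. GLDP1 read 7.06 and 7.09 in Atdi19-3 and 4.35 and 4.39 in WT. Unlike DI19, both were called higher (adjusted p = 0.033 and 0.0103 from limma), and MLP423 was not (adjusted p = 0.0622). GLDP1 and MLP423 are named only through a gene table of the study, every entry of which held here had been picked for a higher level in the mutant. In all, 4 probe sets lay within a distance of 0.5 of DI19.

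For AT3G06760 the closest were AT1G61780 (0.25), AT1G62790 (0.30) and AT3G53190 (0.33), and 24 probe sets lay within 0.5. Each of these shared the low first WT array, with 3.32, 3.11 and 3.20 there, against 4.43, 4.29 and 4.24 on the second. No probe set lay within 0.5 of AT4G02200, and the closest were AT3G10860 (0.56), AT3G52960 (0.59) and AT5G02870 (0.59). AT1G02750 had 8901 probe sets within 0.5, led by AT2G24830 (0.01), AT1G73350 (0.04) and AT3G57940 (0.04). AT5G26990 had 2630, led by AT5G19480, AT4G39140 and AT3G02120 at 0.05 each. Both counts come from the many probe sets near the floor.

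GLDP1 is also a marker of green tissue. Of 5 shoot markers 3 were measured, namely LHCB4.1 (AT5G01530) and LHCB4.2 (AT3G08940) of the light-harvesting antenna and GLDP1, and all 3 were called higher in Atdi19-3, against 3.16% of all tested probe sets and 14.1% of those with a mean over 4. Without GLDP1, whose name comes from the table of genes picked for a higher level, it was 2 of 2. The marker lists were also chosen with earlier results of these data known. The summed log2 values of the 3 shoot markers were 24.45 and 24.69 on the Atdi19-3 arrays and 13.71 and 13.83 on the WT arrays. Of 7 root markers only EXPA7 (AT1G12560), a root hair expansin, was named, at 2.60 and 2.60 in Atdi19-3 and 2.61 and 2.68 in WT, near the floor. Of 7 seed markers and 5 flower and senescence markers 0 had a named probe set. Green-tissue transcripts were thus measured in both genotypes, LHCB4.1 at 9.56 and 9.78 in Atdi19-3 and at 6.08 and 6.09 in WT, and their part in the DI19 difference was not tested.

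Other zinc finger genes of the Cys2/His2 class that respond to stress were read as a group beside the Di19 family. Of 13 listed ZAT and AZF genes 7 were measured, 5 of them named by the platform annotation and 2, ZAT6 and AZF2, only through the study's table of genes picked for a higher level. Among the 7, limma called 0 at an adjusted p under 0.05 (3.76% of all tested probe sets) and 4 at an unadjusted p under 0.05 (18.5% of all). Among the 5 named by the platform, 2 had an unadjusted p under 0.05 and 1 was higher by the study's limits, which 6.34% of all passed. Both mutant arrays lay above both WT arrays for 1 of these 5 and below both for 4, against 28.5% and 10.4% of all tested probe sets. The median log2 fold change was -0.17 over the 5 and -0.12 over the 7, beside 0 over all tested probe sets. ZAT10 (AT1G27730), a salt- and cold-induced repressor, read 8.10 and 8.08 on the Atdi19-3 arrays, against 5.16 and 5.64 on the WT arrays. The difference of 2.69 on the log2 scale (standard error 0.22, limma adjusted p = 0.059) left the 2 genotypes well apart. ZAT6 (AT5G04340), induced by several stresses, read 4.87 and 5.23 in Atdi19-3 and 3.09 and 3.03 in WT, 1.99 apart on the log2 scale (standard error 0.17, limma adjusted p = 0.061). AZF2 (AT3G19580) had a log2 fold change of 1.37 (limma adjusted p = 0.0991). The direction of ZAT6 and AZF2 is no independent evidence, given how they were named.

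The other 4, ZAT4, ZAT5, ZAT9 and ZAT18, had log2 fold changes between -0.42 and -0.12 and read between 2.50 and 2.61 on the Atdi19-3 arrays, so that these differences lie close to the floor. AZF2 and these 4 were named after their values were seen. Two-sided exact permutation of 2 arrays against 2 cannot go below p = 0.333 for any single gene.

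**Figure D3:**
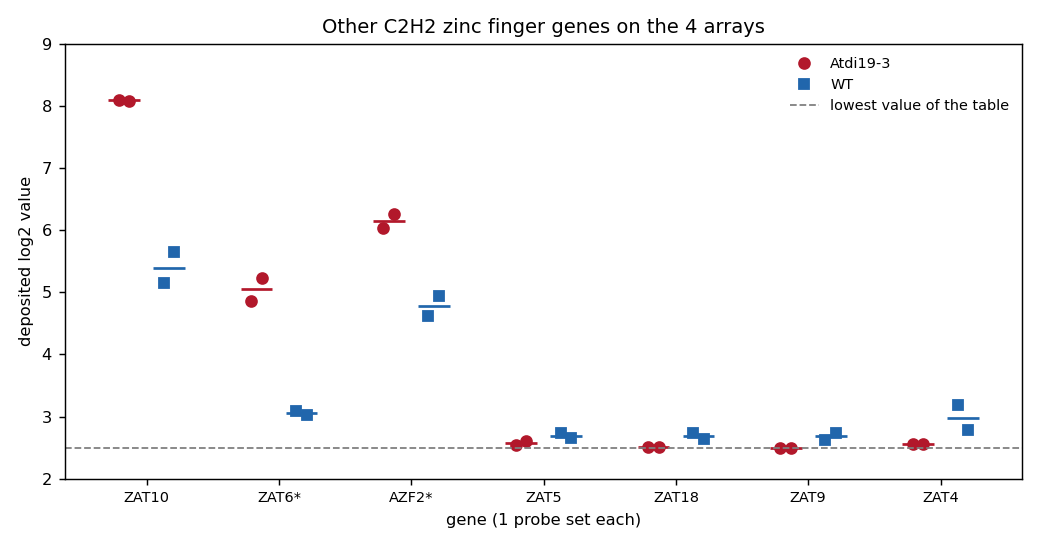
Deposited log2 value (vertical axis) of the 7 measured ZAT and AZF zinc finger genes, with circles for the 2 Atdi19-3 arrays, squares for the 2 WT arrays, short lines for means and a dashed line at 2.49. Stars mark ZAT6 and AZF2, named only through the study's gene table, and the 3 leftmost genes have both Atdi19-3 arrays above both WT arrays.

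Of 12 genes tied to Di19 proteins as kinases, partners or targets, or to the auxin and light pathways around them, none could be read, 0 having a probe set named in the tables used here. These were the kinases CPK4 and CPK11, the auxin repressors IAA7, IAA14 and IAA16, the response factors ARF7 and ARF19, the defence genes PR2 and PR5, and the light signalling genes PHYB, CRY1 and PIF4. They were not analysed here.

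**Figure D4:**
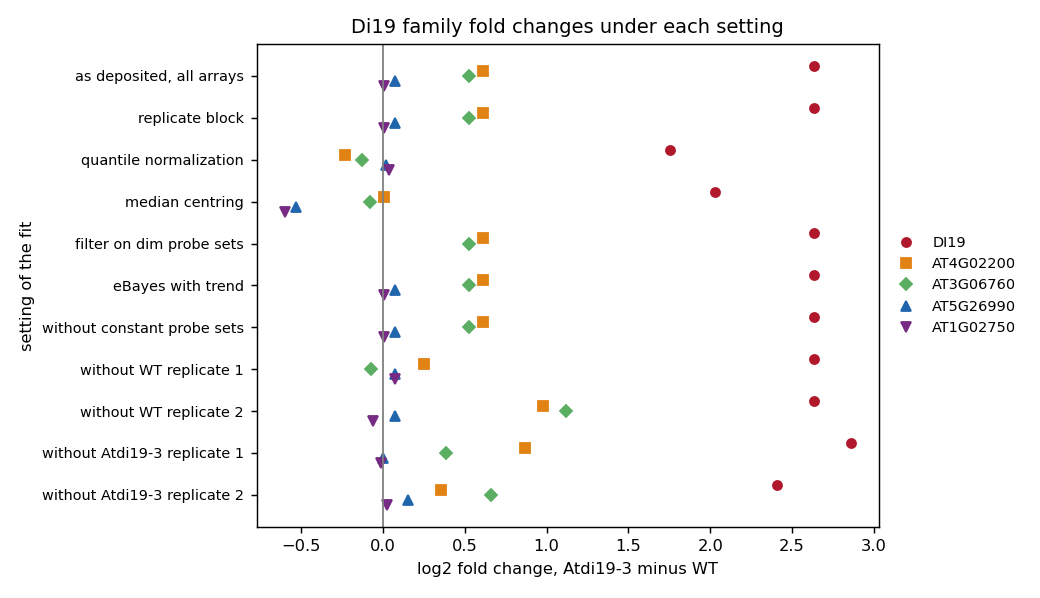
Log2 fold change of Atdi19-3 over WT (horizontal axis) of each measured Di19 family gene under each setting of the fit (rows, with the deposited values on all 4 arrays at the top), 1 symbol per gene. DI19 lies between 1.75 and 2.86 in every row, whereas the other 4 genes have values on either side of 0 or at it.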

How the data were processed

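Arrays were Affymetrix ATH1, hybridized with biotin-labelled RNA (500 ng of total RNA, 3' IVT protocol). The authors deposited normalized log2 values of 22810 probe sets for each array, for which the submitters' processing notes list GCRMA and R 3.4.0. The sources used here do not state whether normalization was joint, and scans were not analysed here. Names came from the platform annotation through Entrez IDs matched to the RefSeq TAIR10.1 gene table (13436 of 13513 single-gene probe sets matched), and 985 more by single-gene rows of a gene table of the study, a shortened one. For 503 probe sets several genes are given, and none was named.

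After 64 control probe sets were set aside, the rest were fitted with limma 3.58.1 in R 4.3.3 (lmFit, eBayes), Atdi19-3 against WT, with no filter or covariate. The fit was tested on simulated normal values that had no floor and no overall shift between the genotypes. That test does not show how the fit behaves where these arrays have both. The number of arrays limits the precision. The limma p-values set the genotype difference against the spread between the 2 arrays of each genotype, moderated across probe sets. This moderation was slight, adding 0.48 degrees of freedom, so the p-values and intervals rest mostly on the 4 values of each probe set. Members and lists were chosen with earlier results of these data known. Genes named are all 7 loci, for each list the called members (up to 4) or the 2 with the smallest p, and the 3 closest patterns per member. For a listed gene with several probe sets the brightest was used. Alternatives were a replicate block, quantile normalization, median centring, a filter on dim probe sets (over 4 on at least 2 arrays), a trend in eBayes, leaving out each array and, chosen after seeing the data, leaving out the probe sets with the same value on all 4 arrays. Median centring used the median of each array over the 1334 probe sets above 4 on all 4 arrays. Sequences and genome coordinates were not used here.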

Additional observations from a re-analysis of the deposited data

How the results depend on the processing

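DI19 was higher in Atdi19-3 under all 10 alternatives (1.75 to 2.86), but only quantile normalization and centring could turn its sign. The rest reused its non-overlapping values. Called members of the family numbered 0 as deposited, 1 (DI19, 2.63) with the filter on dim probe sets, with the trend, without the constant probe sets and by the study's thresholds, and 3 with median centring. Of all probe sets tested, 64.1% were called with the filter, 2.91% with the trend, 7.5% without the constant probe sets, 6.7% by the study's thresholds and 81.2% with centring, beside 3.76% as deposited. That centring moved the median of all probe sets to -0.61 and with it the floor, and so placed AT1G02750 (-0.60) and AT5G26990 (-0.53) below 0 beside DI19 (2.03) and AT3G06760 (-0.082). Quantile normalization turned AT4G02200 (-0.23) and AT3G06760 (-0.13). When 1 array was left out, DI19 ranged from 2.41 to 2.86 and AT3G06760 from -0.073 to 1.12. AT1G02750 then ranged from -0.064 (and -0.012) to 0.075, AT4G02200 from 0.25 to 0.98 and AT5G26990 from 0 to 0.15. The filter left no value for AT1G02750 and AT5G26990.

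The ZAT and AZF calls numbered 0 as deposited, 7 with centring, 3 with the filter, 2 without the constant probe sets and 0 to 4 when 1 array was left out. The 4 arose without either WT array, where the spread came from the 2 Atdi19-3 arrays alone and 14.8% and 16.1% of all probe sets were called. Of these 4, ZAT4, ZAT9 and ZAT18 held identical values near the floor on both Atdi19-3 arrays. Of the 3 with the filter, ZAT6 passed it only through its Atdi19-3 arrays. Over all probe sets limma called 718 higher and 137 lower as deposited. Higher calls numbered 270 after quantile normalization (158 lower), 1448 with centring (17014 lower), 1747 of 3020 probe sets tested with the filter (188 lower), 1334 of 19991 without the constant probe sets (165 lower) and 0 to 886 when 1 array was left out (0 to 2768 lower). The share of higher calls was 84.0% as deposited, 63.1% after quantile normalization, 7.84% with centring, 90.3% with the filter, 89.0% without the constant probe sets, and 21.5% and 24.2% without the first and second WT array.

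With the replicate number as a block limma called 0 probe sets, higher or lower, and DI19 stayed at 2.63 (adjusted p = 0.196). The numbers were not taken to pair the arrays, since the difference between replicates 1 and 2 correlated between the genotypes at only 0.02 across probe sets. The block left 1 residual degree of freedom. AT5G26990 and AT1G02750 lay within 0.53 of the floor on every array, which limits what their differences can show.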
